A study of Mus musculus with 6 samples.

Results

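Genes that mark the choroid plexus epithelium and the ependyma were examined in RNA-seq libraries of mouse microglia. The 31 markers, 19 of choroid plexus and 12 of ependymal cells, were taken by gene symbol from a list of known markers and make up 31 of the 38924 Ensembl genes in the count tables. All 31 were matched to an identifier, and 28 passed the filter on low counts, namely all 19 choroid plexus markers and 9 of the 12 ependymal markers. Ccdc153, Tmem212 and Spag6 had too few reads to be tested.

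The libraries came from C57BL/6 WT female mice that served as age-matched controls in a study of Rett syndrome, 3 mice at 5 weeks and 3 at 24 weeks, and the labels give no transgene, deletion or treatment for either age group. Whole brains were dissociated after the meninges were taken off by hand, myelin was depleted with beads, and microglia were captured with magnetic beads against CD11b, an integrin found on macrophages. Per the study's methods, this isolation typically gives mostly microglia, with a minority of other cells. Removal of the choroid plexus before dissociation is not mentioned there. Each age was sequenced in its own lane, and an effect of lane cannot be told apart from one of age in the values given here.

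The choroid plexus is a secretory epithelium that hangs in the brain ventricles and makes cerebrospinal fluid. Its cells pump ions and water across an apical membrane, seal the blood from the fluid with tight junctions and secrete carrier proteins. Ependymal cells line the ventricle walls and move the fluid with bundles of motile cilia, which are built under the transcription factor FOXJ1 and the RFX factors. Choroid plexus epithelium and ependyma descend from neural tube epithelium and lie next to each other in the ventricles, and neither cell type is known to carry CD11b.

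The 5-week libraries held 23198065 to 46434788 gene counts and the 24-week libraries 10410625 to 13554336. Values are given as normalized CPM, that is, counts relative to a library size scaled with TMM factors, and levels of single genes are set against each other only per kilobase of exon, while sums over lists are in plain normalized CPM. At this depth a floor of 3 counts corresponds to between 0.0693 and 0.28 normalized CPM, and counts of 0 to 3 say only that a gene was not detectable above that level. Reads on no exon made up 39.98% to 41.84% of uniquely placed reads at 5 weeks and 48.69% to 54.92% at 24 weeks, and reads at several positions 32.67% to 35.47% and 22.46% to 23.52% of all rows, so both separated the ages without overlap, and their part in the age differences was not tested. The 24-week replicate 3 was unusual for a female label. It held 78 counts of Xist, the RNA of the inactive X chromosome of female cells, beside 31677 to 59021 in the other libraries. Y-linked genes had 0 counts in all 6 libraries, so the values do not show a male either, and the cause of the low Xist was not tested. The calls for the markers are therefore also given without 24-week replicate 3, and those of other lists where the number that passed changed by 1.5 times or more. Homeostatic microglia genes were abundant in each library: 12 of them summed to 24954 to 33640 normalized CPM, against 8041 to 12518 for the 19 choroid plexus markers and 29.3 to 49.7 for the 12 ependymal markers. Such sums depend on the genes listed and do not give the share of a library from a cell type.

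Choroid plexus RNA was present in every library. The 19 markers took 0.818%, 1.23% and 0.75% of the gene counts of 5-week replicates 1, 2 and 3, and 0.87%, 1.07% and 1.09% at 24 weeks. The ages overlapped, and the highest and the lowest share were both found at 5 weeks. Summed normalized CPM averaged 9629 ± 2506 at 5 weeks and 9770 ± 1045 at 24 weeks (SD, n = 3), a difference far smaller than the spread between replicates. Ttr and Enpp2 made up 87.5% to 91.9% of these marker counts, so the sum mainly follows that pair. In bulk RNA, fewer cells of a type and less RNA per cell cannot be told apart, so these sums do not give a number of epithelial cells.

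RNA of the ependymal markers was present at a much lower level. Several of them are motile cilium genes, and choroid plexus epithelium also carries some motile cilia. Which cells gave these reads was not tested. The 12 ependymal markers took 0.00293%, 0.00419% and 0.00273% of gene counts at 5 weeks and 0.00362%, 0.00527% and 0.0049% at 24 weeks. Their summed normalized CPM averaged 33.9 ± 7.53 at 5 weeks and 44.4 ± 7.52 at 24 weeks (SD, n = 3), and the ages overlapped. The difference in level between the lists was also present per kilobase of exon, where the median marker stood at 8.34, 12.1 and 8.51 normalized CPM for choroid plexus and at 0.982, 1.06 and 0.822 for ependyma in the 5-week libraries. At 24 weeks the same medians were 12.9, 14.7 and 13 for choroid plexus and 0.956, 1.58 and 1.14 for ependyma. Unlike the sums, the choroid plexus medians did not overlap between the ages, while the ependymal medians did. In each of the 6 libraries the median choroid plexus marker therefore lay above the median ependymal marker.

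**Figure D1:**
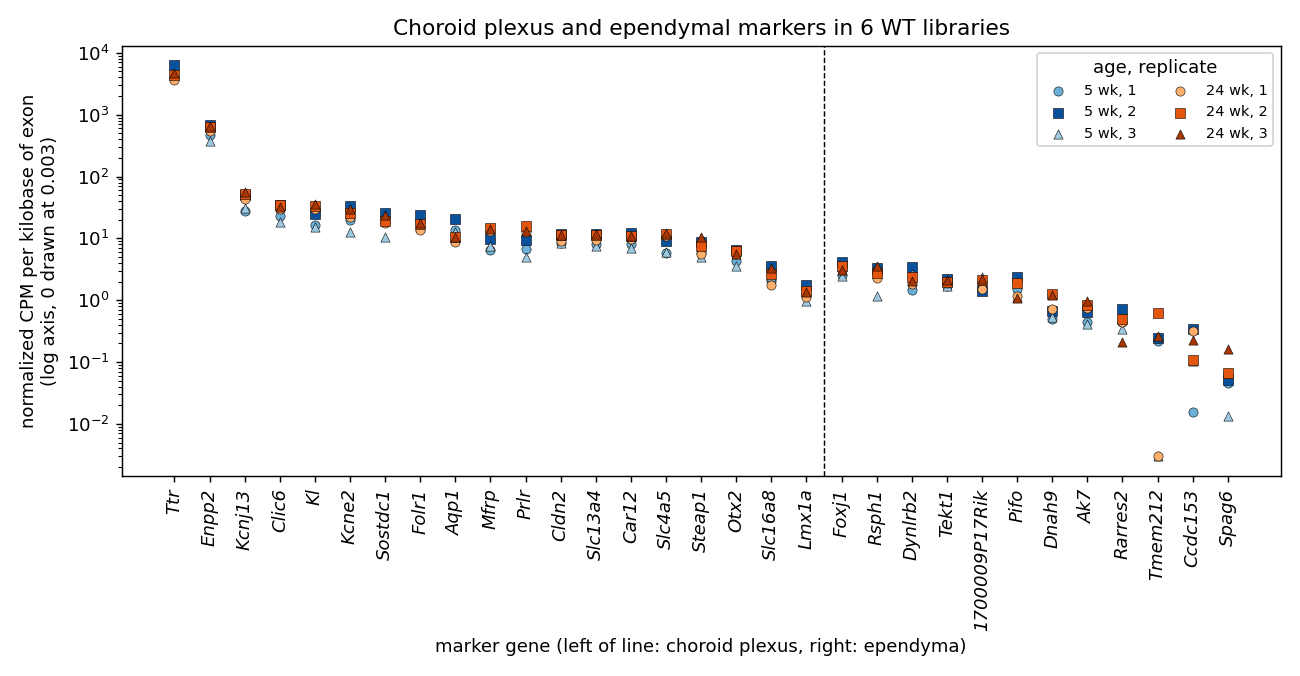
Normalized CPM per kilobase of exon (vertical axis, log scale) of each of the 31 markers in the 6 WT libraries, with 1 point per library, blue at 5 weeks and orange at 24 weeks. Ttr and Enpp2 stand above all other markers, and Tmem212, Ccdc153 and Spag6 scatter near the detection floor.

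The choroid plexus signal was dominated by a pair of secreted proteins. Ttr encodes transthyretin, the carrier of thyroid hormone in cerebrospinal fluid (chr18:20665280-20674321). It reached 4897, 7408 and 5238 normalized CPM in 5-week replicates 1, 2 and 3 and 4349, 5225 and 5633 at 24 weeks, and ranked between 6 and 13 among all genes of a library. The ages overlapped, with the highest value in 5-week replicate 2, and the log2 fold change of 24 over 5 weeks was -0.21 ± 0.18 (SE, edgeR adjusted p = 0.431).

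Enpp2 encodes autotaxin, a secreted enzyme that makes lysophosphatidic acid (chr15:54838901-54952892). Its normalized CPM was 2674, 3988 and 2149 at 5 weeks and 3177, 3595 and 3744 at 24 weeks, and the ages overlapped through 5-week replicate 2 alone. Enpp2 is also made by oligodendrocytes, and the share of its reads from those cells was not tested. Ttr and Enpp2 together made up 87.5% to 91.9% of all choroid plexus marker counts.

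Sostdc1, a secreted antagonist of BMP signalling, had 33.3, 46.2 and 18.9 normalized CPM at 5 weeks and 31.3, 33.6 and 42.6 at 24 weeks. Its ages overlapped, and the difference was 0.13 ± 0.26 on the log2 scale (SE, edgeR adjusted p = 0.737).

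The choroid plexus markers that passed the test were receptors and other membrane proteins, which also make up most of that list. The threshold was an adjusted p of 0.05 in edgeR's quasi-likelihood test over 16157 genes, where 28.8% of genes passed in either direction, 15.5% as higher and 13.3% as lower at 24 weeks. Of the 19 choroid plexus markers, 4 rose (Prlr, Mfrp, Kl and Slc4a5), 1 fell (Aqp1) and 14 did not pass. This is a share near that of all genes and is no result about the markers as a list. Their median log2 fold change was 0.24, with a range from -0.65 to 0.98, beside a median of 0.00 over all genes tested. The p-values measure the spread between 3 mice per age and no more.

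Prlr encodes the prolactin receptor, which choroid plexus epithelium carries at high density (chr15:10177238-10349180). It had 104, 144 and 76.9 normalized CPM at 5 weeks and 198, 244 and 199 at 24 weeks. Each 24-week library was above each 5-week library. The log2 fold change was 0.98 ± 0.19 (SE, edgeR adjusted p = 0.00395).

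Kl encodes Klotho, a membrane protein that acts as a co-receptor for FGF23 (chr5:150952607-150993817). Its normalized CPM was 156, 229 and 143 at 5 weeks and 280, 316 and 330 at 24 weeks. The ages did not overlap, and the log2 fold change was 0.81 ± 0.17 (SE, edgeR adjusted p = 0.0048).

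Mfrp encodes a membrane protein with frizzled-related domains, known from the retinal pigment epithelium (chr9:44101729-44109187). Its normalized CPM was 27.7, 42.2 and 32.6 at 5 weeks and 56.8, 63.7 and 61.8 at 24 weeks, without overlap, and the log2 fold change was 0.83 ± 0.15 (SE, edgeR adjusted p = 0.00227). On the same strand, 36.7% of the exon bases of Mfrp also belong to C1qtnf5, which had 0 counts in every library, and in the counting mode used, reads on shared bases are assigned to neither gene.

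Slc4a5 encodes a sodium bicarbonate cotransporter of the apical membrane (chr6:83219828-83304945). It had 33.9, 52.6 and 35.2 normalized CPM at 5 weeks and 63, 67.9 and 71.6 at 24 weeks, again without overlap. Its log2 fold change was 0.74 ± 0.16 (SE, edgeR adjusted p = 0.00668). Prlr, Kl, Mfrp and Slc4a5 passed in the main test and in all 16 alternatives computed for each.

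Aqp1 encodes the water channel of the apical membrane (chr6:55336432-55348555). It had 35.3, 54.5 and 33.3 normalized CPM at 5 weeks and 23.1, 27.3 and 27.9 at 24 weeks, so that every 24-week library lay below every 5-week library. The log2 fold change was -0.65 ± 0.18 (SE, edgeR adjusted p = 0.0221). This call was less firm than the 4 rises, since without 5-week replicate 2 the change was -0.40 with an edgeR adjusted p of 0.0537, and it also missed the threshold without 24-week replicate 1 (0.0976) or replicate 2 (0.0571) and with total counts as the only scaling (0.0562).

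Prlr and Aqp1, the marker with the largest rise and the only one that fell, were also set against each other within each library, where no scaling enters. There were 2.96, 2.65 and 2.31 Prlr counts per Aqp1 count at 5 weeks and 8.58, 8.93 and 7.12 at 24 weeks. Kl counts per 1000 Ttr counts moved likewise, from 31.9, 31 and 27.3 to 64.4, 60.6 and 58.5. Count ratios of these choroid plexus transcripts thus differed between the ages, without overlap. Each ratio sets a longer gene over a shorter one, Prlr (15339 bases of exon) over Aqp1 (2627) and Kl (9328) over Ttr (1186). Over all genes with a length, log2 fold change rose with exon length (Spearman's rho 0.311). A ratio within a library does not remove that trend, and its part in these pairs was not tested. These pairs were chosen after their values were seen, so no test is given.

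The other transporters and channels did not pass. Kcnj13, an inward rectifier potassium channel of the apical membrane, came nearest, at 34.8, 63.9 and 39 normalized CPM at 5 weeks and 54.2, 67.1 and 70.8 at 24 weeks. Only 5-week replicate 2 lay among the 24-week libraries, and the log2 fold change was 0.48 ± 0.20 (SE, edgeR adjusted p = 0.0996). Clic6, an intracellular chloride channel protein, had 90.6, 136 and 71.1 normalized CPM at 5 weeks and 115, 137 and 125 at 24 weeks (edgeR adjusted p = 0.208).

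Kcne2, a regulatory subunit of potassium channels, had 35.6, 59.4 and 22.7 normalized CPM at 5 weeks and 38.7, 45.8 and 53 at 24 weeks. Slc13a4, a sodium sulfate cotransporter, had 37.3, 53 and 34.7 at 5 weeks and 43, 51.9 and 52.9 at 24 weeks. Car12, a membrane carbonic anhydrase, had 61.5, 91.6 and 53.4 at 5 weeks and 74.4, 82.4 and 83.8 at 24 weeks. In each of these 3 genes the highest value of all 6 libraries was that of 5-week replicate 2, and the adjusted p of the age difference ran from 0.287 to 0.563.

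Folr1 encodes the folate receptor that carries folate into cerebrospinal fluid. It had 41.8, 55.8 and 35.2 normalized CPM at 5 weeks and 31.3, 39 and 40.6 at 24 weeks, with overlap, and a log2 fold change of -0.26 ± 0.17 (SE, edgeR adjusted p = 0.28). Slc16a8, a lactate transporter, had 4.72, 8.01 and 5.61 normalized CPM at 5 weeks and 3.94, 6.06 and 7.48 at 24 weeks. Steap1, a membrane protein of the STEAP family, had 7.85, 12 and 6.79 at 5 weeks and 7.66, 10.4 and 14.5 at 24 weeks. The ages of both overlapped as well (edgeR adjusted p = 0.866 and 0.424). Cldn2, a pore-forming claudin of the tight junctions, had 27.7, 39.8 and 28.3 normalized CPM at 5 weeks and 29.7, 37.3 and 38.2 at 24 weeks (edgeR adjusted p = 0.559).

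Transcription factors of the lineage were detected in every library, at 4.78 (Otx2) and 1.33 (Lmx1a) normalized CPM per kilobase of exon on average at 5 weeks, beside 4931 for Ttr. Otx2, a homeobox gene needed for choroid plexus development, had 18.3, 27.1 and 15.1 normalized CPM at 5 weeks and 23.9, 26.7 and 24 at 24 weeks (log2 fold change 0.31 ± 0.19, SE, edgeR adjusted p = 0.251). Lmx1a, a homeobox gene of the roof plate from which the plexus arises, had 4.13, 6.09 and 3.3 at 5 weeks and 3.87, 4.81 and 4.58 at 24 weeks. Both overlapped between the ages, and the difference for Lmx1a was -0.01 ± 0.25 on the log2 scale (edgeR adjusted p = 0.972).

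Among the ependymal markers, Foxj1, the transcription factor of the motile cilium programme, had 6.75, 11 and 6.4 normalized CPM at 5 weeks and 7.95, 9.54 and 8.22 at 24 weeks (chr11:116330704-116335399). The ages overlapped, and the log2 fold change was 0.10 ± 0.22 (SE, edgeR adjusted p = 0.766). Per 1000 Kl counts there were 43.2, 48.1 and 44.7 Foxj1 counts at 5 weeks and 28.4, 30.1 and 24.9 at 24 weeks, without overlap, a pair again chosen after its values were seen. Foxj1 (2623 bases of exon) is shorter than Kl (9328), and the part of exon length in this ratio was not tested. Choroid plexus epithelium carries some motile cilia and is known to express Foxj1, so this gene does not separate the cell types on its own.

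Of the 9 ependymal markers tested, 1 rose (Dnah9), 0 fell and 8 did not pass, beside 15.5% of all genes higher and 13.3% lower. At an unadjusted p under 0.05 edgeR gave 2 higher and 0 lower, DESeq2 gave 1 higher and 0 lower after adjustment, and limma-voom 2 higher and 0 lower. Their median log2 fold change was 0.10, with a range from -0.31 to 0.89.

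Dnah9 encodes a heavy chain of the outer dynein arms that drive ciliary beating (chr11:65831282-66168551). It had 8, 10.8 and 8.57 normalized CPM at 5 weeks and 11.4, 20.1 and 19.1 at 24 weeks, and the lowest 24-week library lay just above the highest 5-week library. The log2 fold change was 0.89 ± 0.21 (SE, edgeR adjusted p = 0.0108). The call was lost without 24-week replicate 2 (0.73, edgeR adjusted p = 0.0617) and when a trend on exon length was removed (0.57, edgeR adjusted p = 0.0609).

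Ak7, an adenylate kinase of motile cilia, did not overlap between the ages either, at 1.84, 2.76 and 1.73 normalized CPM at 5 weeks and 3.14, 3.47 and 4.02 at 24 weeks. Its log2 fold change of 0.76 ± 0.26 just missed the threshold (SE, edgeR adjusted p = 0.0502). Without overlap were thus 2 of the 9 ependymal markers tested, both higher, and 5 of the 19 choroid plexus markers, 4 higher and 1 lower, while among all genes tested 23% were higher and 22.1% lower without overlap (45.1% in either direction).

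The structural genes of the axoneme were low and overlapped between the ages. Rsph1, of the radial spokes, had 3.63, 4.51 and 1.62 normalized CPM at 5 weeks and 3.14, 3.84 and 4.86 at 24 weeks. Tekt1, a tektin that lines the microtubule doublets, had 2.75, 3.55 and 2.8 at 5 weeks and 3.07, 3.25 and 3.46 at 24 weeks. The spread within an age was wide for Rsph1 and narrow for Tekt1, and the edgeR adjusted p of the age difference was 0.559 and 0.744.

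1700009P17Rik, also named Cfap126, codes for a protein at the ciliary base and was the only marker not led by 5-week replicate 2 at 5 weeks, with 2.88, 2.5 and 4.25 normalized CPM there and 2.7, 3.77 and 3.92 at 24 weeks. Pifo, a protein of the primary cilium and its disassembly, had 1.69, 2.63 and 1.25 at 5 weeks and 1.31, 2.14 and 1.21 at 24 weeks. Both overlapped between the ages.

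Dynlrb2, a dynein light chain, had 0.813, 1.88 and 1.48 normalized CPM at 5 weeks and 1.02, 1.33 and 1.12 at 24 weeks. Rarres2, the chemoattractant chemerin, had 1.16, 1.88 and 0.924 at 5 weeks and 1.17, 1.33 and 0.561 at 24 weeks. In both, 5-week replicate 2 was the highest of all 6 libraries. Neither they nor 1700009P17Rik and Pifo passed, with adjusted p-values from 0.599 to 0.828.

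The 3 markers left out by the filter had a handful of reads each. Ccdc153, which marks mature ependymal cells in many mouse brain data sets, had 1, 16 and 9 counts at 5 weeks and 9, 3 and 5 at 24 weeks. Tmem212, another such marker, had 5, 4 and 0 counts at 5 weeks and 0, 6 and 2 at 24 weeks. A count of 0 in these libraries allows a level of up to 0.0693 normalized CPM in 5-week replicate 3 and of up to 0.219 in 24-week replicate 1 (3 counts, counting error only).

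Spag6, of the central pair of microtubules, had 2 to 5 counts at 5 weeks and 3 to 6 at 24 weeks at the locus that carries this symbol (chr2:18694032-18750413). A near-identical copy, Spag6l (chr16:16753016-16829456), had 177, 167 and 247 counts at 5 weeks and 81, 111 and 86 at 24 weeks. Reads that fit several positions were not counted, so the split between the copies is uncertain. Spag6l did not pass, with a log2 fold change of 0.26 ± 0.20 (SE, edgeR adjusted p = 0.356).

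Ccdc153, Tmem212 and Spag6 were therefore at or near the floor, while the other ependymal markers, Foxj1 and Dnah9 among them, were above it. The lowest count of any of the 19 choroid plexus markers in any library was 49. Summed over Ccdc153 and Tmem212, there were 6, 20 and 9 counts at 5 weeks and 9, 9 and 7 at 24 weeks, the highest in 5-week replicate 2.

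Promoters of the markers were read to see what the members share in sequence, since RFX factors and OTX2 are known regulators of ciliary and choroid plexus genes. RefSeq windows on GRCm38.p6, from 250 bases before to 50 bases after a start site, were matched for 23 of the 31 markers. The short RFX site GTTGCC, or its reverse complement GGCAAC, was in the windows of 5 of 9 ependymal markers (Ccdc153, Dynlrb2, Pifo, Spag6 and Tekt1), in 4 of 14 choroid plexus markers (Aqp1, Kcne2, Otx2 and Steap1) and in 14.1% of 27025 genes. A longer palindromic RFX motif of 14 bases, a single fixed form of the X-box, was searched on both strands and could overlap the short site. X-boxes with other letters or another spacing were not searched, so no marker is shown to lack an X-box. The form searched was in Pifo alone of the markers, beside 0.529% of genes. Stretches of the windows of 3 ependymal markers that hold these letters read as follows from 5′ to 3′ on the gene's strand, with the sites in capitals. The stretches of Pifo (chr3:106001498-106001557, minus strand) and Tekt1 (chr11:72361883-72361957, minus strand) belong to RefSeq starts inside the annotated genes. That of Dynlrb2 lies at chr8:116504924-116505009 (plus strand).
Pifo: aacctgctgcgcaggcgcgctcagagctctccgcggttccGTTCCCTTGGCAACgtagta
Dynlrb2: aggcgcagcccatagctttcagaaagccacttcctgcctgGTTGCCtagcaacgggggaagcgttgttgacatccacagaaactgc
Tekt1: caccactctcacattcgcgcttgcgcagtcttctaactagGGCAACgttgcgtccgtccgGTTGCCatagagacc

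Dynlrb2, Pifo and Tekt1, whose windows are shown, were among the ependymal markers with overlapping ages. The windows of Dnah9 and Ak7 did not hold the RFX letters that were searched. Ttr, Folr1, Clic6, Sostdc1, Enpp2, Foxj1, Rsph1 and Rarres2 were not matched. The OTX2 core TAATCC, or GGATTA on the other strand, was in the windows of 2 of 14 choroid plexus markers, Mfrp and Otx2 itself, in 1 of 9 ependymal markers (Pifo) and in 8.14% of genes. The FOXJ1 core GTAAACA, or TGTTTAC, was in Prlr and Ak7 and in 4.05% of genes. Of the members that rose, Mfrp is shown with the OTX2 core in capitals (chr9:44101596-44101681, plus strand), beside Otx2 (chr14:48665275-48665359, minus strand). The Otx2 stretch belongs to a RefSeq start inside the annotated gene (chr14:48657677-48673819). A match of letters is a description and marks no bound site.
Mfrp: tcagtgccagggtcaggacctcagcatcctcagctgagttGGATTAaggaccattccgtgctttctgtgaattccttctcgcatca
Otx2: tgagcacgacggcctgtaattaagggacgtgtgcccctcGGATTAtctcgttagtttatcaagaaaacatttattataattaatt

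Within an age, the choroid plexus markers moved together from mouse to mouse. The 5-week replicate 2 was the highest 5-week library in 19 of 19 choroid plexus markers and in 11 of 12 ependymal markers (8 of the 9 tested), against 31.1% of all genes tested. Its level over the mean of the other 5-week libraries was 1.4 to 2.04 times for the choroid plexus markers, with a median of 1.59, while the median over all genes was at parity. At 24 weeks, replicate 1 was the lowest library in 19 of 19 choroid plexus markers and in 9 of 12 ependymal markers, against 29.4% of all genes tested. The 12 include the markers too low to test, of which Tmem212 and Spag6 were lowest there at 0 and 3 counts. The 24-week libraries were closer to each other, with a highest-to-lowest ratio of 1.12 to 1.9 and a median of 1.23. Members of a list are not replicates, and these counts describe single mice.

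**Figure D2:**
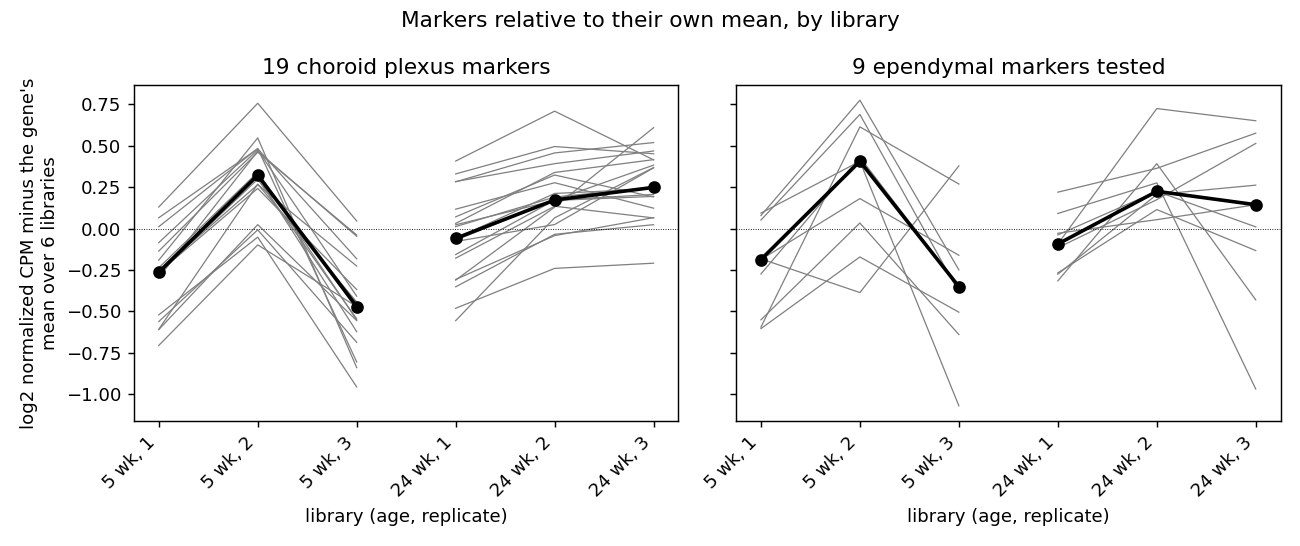
Log2 normalized CPM of each marker minus its own mean over the 6 libraries (vertical axis), by library, for the 19 choroid plexus markers (left) and the 9 ependymal markers tested (right), with grey lines for genes and black points for their median. Grey lines rise together in 5-week replicate 2, where all 19 choroid plexus markers and 8 of the 9 ependymal markers were highest among 5-week libraries.

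Most of that spread was common to the whole choroid plexus list. The geometric mean of the 19 markers was 50.1, 75.5 and 44.4 normalized CPM at 5 weeks and 58.7, 70.2 and 73.4 at 24 weeks. Divided by it, the median range of a marker over the 5-week libraries went from 0.779 to 0.176 on the log2 scale, and over the 24-week libraries from 0.299 to 0.146. Relative to that level, 5 markers were higher at 24 weeks without overlap (Prlr, Mfrp, Kl, Slc4a5 and Kcnj13), 4 were lower (Aqp1, Folr1, Ttr and Lmx1a) and 10 overlapped, beside 45.1% of all genes without overlap on the unscaled values. The scaled difference was 0.734 for Prlr, 0.553 for Kl, -0.473 for Ttr and -0.903 for Aqp1. The level is the mean of the same markers, so their scaled differences sum to about zero by construction, the balance of higher and lower markers follows from it, and the values are a description only.

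Leaving out 5-week replicate 2 changed the number of choroid plexus markers that passed more than any other setting tried. Without it, 11 of 19 choroid plexus markers were higher and 0 lower, beside 13.7% and 12.2% of 15877 genes tested (25.9% in either direction), and the median log2 fold change was 0.53. All 19 were highest at 5 weeks in the library left out, so the direction of this shift was fixed in advance. The added calls show dependence on 1 library and are no separate evidence of a rise with age. At an unadjusted p under 0.05, edgeR gave 11 higher and 1 lower in that fit. The 11 comprised the 4 that rose with all libraries and Clic6, Otx2, Kcnj13, Enpp2, Kcne2, Slc13a4 and Car12. Kcnj13 then had a log2 fold change of 0.78 (edgeR adjusted p = 0.00444), Clic6 of 0.63 (edgeR adjusted p = 0.00985) and Enpp2 of 0.53 (edgeR adjusted p = 0.0389), while Ttr, at -0.21 with all libraries, went to -0.01 (edgeR adjusted p = 0.974). Among the ependymal markers, Dnah9 and Ak7 were then higher, and 0 lower. Without 24-week replicate 3, the library low in Xist, Prlr, Mfrp, Kl and Slc4a5 were higher, Aqp1 was lower and Dnah9 was higher, as with all libraries.

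**Figure D3:**
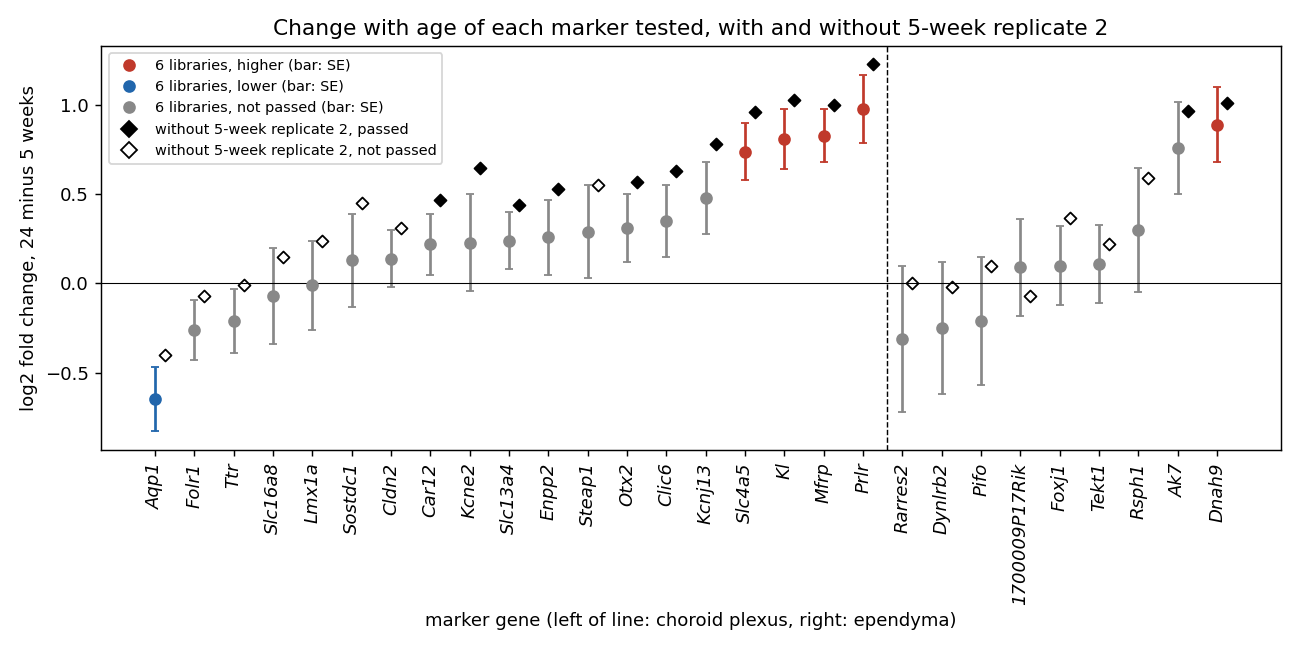
Log2 fold change of 24 over 5 weeks (vertical axis) of the 28 markers tested, with circles and SE bars for all 6 libraries (red higher, blue lower, grey not passed) and diamonds for the fit without 5-week replicate 2 (filled where it passed). Diamonds of the choroid plexus markers lie above their circles, and 11 of the 19 are filled.

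Markers of other cell types were read in the same libraries, and their part in the results was not tested. In 5-week replicate 2, the median level over the other 5-week libraries was 1.46 times for 30 other choroid plexus genes, 1.52 for 35 other motile cilium genes, 1.34 for 12 astrocyte markers, 1.31 for 12 meningeal fibroblast markers, 1.17 for 14 endothelial markers and 1.97 for 5 erythroid markers. It was 0.85 for 12 oligodendrocyte markers, 0.93 for 12 microglia markers, 0.99 for 12 neuron markers, 1.05 for 10 border-associated macrophage markers and 1.07 for 11 mural cell markers. The erythroid markers, which come with blood, summed to 213, 308 and 68.9 normalized CPM at 5 weeks and 337, 116 and 67.7 at 24 weeks. At 5 weeks the libraries had the same order in these sums as in the choroid plexus sums, and at 24 weeks the reverse order. A link between them was not tested. None of the 5 erythroid markers tested passed with edgeR, DESeq2 or limma-voom, nor at an unadjusted p under 0.05.

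Beside 15.5% of all genes higher and 13.3% lower at 24 weeks, 12 of 14 endothelial and 9 of 11 mural cell markers rose, and their summed normalized CPM went from 427 to 464 up to 828 to 875 and from 160 to 194 up to 302 to 337. Of 12 meningeal fibroblast markers 2 rose and 1 fell, with sums of 144 to 229 at 5 weeks and 292 to 316 at 24 weeks. In the other direction, 7 of 10 border-associated macrophage markers fell, with sums of 1065 to 1399 and 596 to 700, and 5 of 12 astrocyte markers fell and 1 rose, with sums of 688 to 978 and 575 to 670. Among oligodendrocyte markers 4 of 12 fell (1787 to 3023 and 1098 to 2965), among neuron markers 4 of 12 rose and 2 fell (118 to 121 and 92.9 to 141), and among homeostatic microglia markers 1 of 12 rose and 3 fell. Without 24-week replicate 3, neuron markers had 1 higher and 1 lower and astrocyte markers 1 higher and 3 lower, and without 5-week replicate 2 they had 1 and 2, and 1 and 3. In 5-week replicate 2 the endothelial, mural, fibroblast, astrocyte, neuron and erythroid sums were, like the choroid plexus and ependymal sums, the highest of that age, and the oligodendrocyte and microglia sums the lowest.

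Further genes of the choroid plexus were read beside the markers. Of 30 such genes tested, 8 rose, 1 fell and 21 did not pass, beside 15.5% of all genes higher and 13.3% lower, with a median log2 fold change of 0.29. The 4 with the smallest p-values were Abcc4, an efflux pump for organic anions (1.18, edgeR adjusted p = 4.67e-05), Trf, the iron carrier transferrin (-1.22, edgeR adjusted p = 0.000223), Igf2, a growth factor secreted by plexus and meninges (1.21, edgeR adjusted p = 0.000624), and F5, coagulation factor V (1.11, edgeR adjusted p = 0.00063). Trf is made by oligodendrocytes too, and Igf2 is also a fibroblast marker. In 27 of the 30 genes, 5-week replicate 2 was the highest 5-week library.

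A list of other motile cilium genes was read as well. Of 35 tested, 12 rose, 0 fell and 23 did not pass, with a median log2 fold change of 0.44, beside 15.5% of all genes higher and 13.3% lower. The count was 5 without 5-week replicate 1, 6 without 24-week replicate 2 and 8 without 24-week replicate 3. DESeq2 and limma-voom likewise gave 12 higher and 0 lower, and edgeR 16 higher and 0 lower at an unadjusted p under 0.05. The smallest p-values were those of Dnah11, a dynein heavy chain (1.27, edgeR adjusted p = 0.000822), Rfx2, an RFX transcription factor (1.45, edgeR adjusted p = 0.00138), Hydin, of the central pair (1.45, edgeR adjusted p = 0.00163), and Dnah6, a dynein heavy chain (1.15, edgeR adjusted p = 0.00395). Dnah11 had 6.1, 8.89 and 6.35 normalized CPM at 5 weeks and 13.9, 19.1 and 18.1 at 24 weeks, without overlap. Whether motile cilium genes differ from the ependymal markers in their change was not tested.

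Set against each other within a library, the lists gave a ratio whose direction depended on which members were summed. Per 100 choroid plexus marker counts there were 0.359, 0.34 and 0.364 ependymal marker counts at 5 weeks and 0.416, 0.493 and 0.449 at 24 weeks, and each 24-week library was above each 5-week library. Without the most abundant member of each list, Ttr and Dnah9, the same ratio was 0.637, 0.622 and 0.738 at 5 weeks and 0.573, 0.609 and 0.573 at 24 weeks, and each 24-week library was below each 5-week library. Without Dnah9 alone it was 0.262, 0.254 and 0.257 at 5 weeks and 0.283, 0.293 and 0.269 at 24 weeks, and without Ttr alone 0.871, 0.834 and 1.04 at 5 weeks and 0.84, 1.02 and 0.955 at 24 weeks, so that the ages stayed apart without Dnah9 and overlapped without Ttr. Without Ttr and Enpp2 it was 3.95, 3.8 and 4.47 at 5 weeks and 3.31, 3.94 and 3.82 at 24 weeks, where the ages overlapped. The ratio of the age means was 1.28 with all members and 0.878 without Ttr and Dnah9. The contrast between the lists with age was therefore not settled by the sums.

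Exon length moved with the age difference. Spearman's rho of log2 fold change on exon length was 0.53 over the 19 choroid plexus markers, 0.5 over the 9 ependymal markers and 0.311 over 15959 genes with a length, as a description across genes that share the same 6 libraries. Prlr (15339 bases), Dnah9 (15949 bases) and Kl (9328 bases) are long, and Ttr (1186 bases) and Dynlrb2 (556 bases) are short. With the trend of each library on length removed, an alternative chosen after seeing the data, rho went to 0.198 for choroid plexus and 0.45 for ependyma. Prlr then had a log2 fold change of 0.68 (edgeR adjusted p = 0.0182), Kl of 0.60 (edgeR adjusted p = 0.0184), Slc4a5 of 0.63 (edgeR adjusted p = 0.0148) and Mfrp of 0.81 (edgeR adjusted p = 0.00342), so these 4 still passed. Kcnj13 passed as well (0.71, edgeR adjusted p = 0.0332), while Aqp1 did not (-0.54, edgeR adjusted p = 0.0541).

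**Figure D4:**
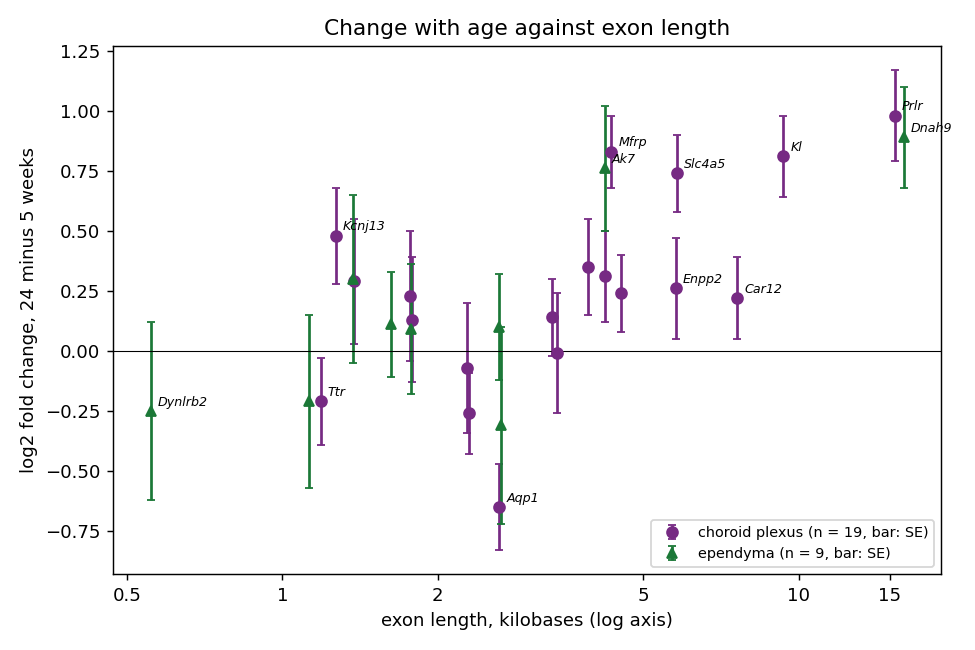
Log2 fold change of 24 over 5 weeks (vertical axis, bars are SE) against exon length in kilobases (log axis) for 19 choroid plexus markers (circles) and 9 ependymal markers (triangles). Long genes such as Prlr and Dnah9 lie at the top right and short genes such as Ttr and Dynlrb2 at or below zero, with Mfrp and Ak7 high at middle length.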

How the data were processed

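RNA-seq was done on microglia of 6 WT mice, 3 at 5 weeks and 3 at 24 weeks. The authors deposited raw counts, 1 table per library, and no normalization is contained in them. Per the submitters' notes and the study's methods, reads were trimmed with trim_galore, aligned to GRCm38 with TopHat2 2.0.13 and counted on exons in union mode on the reverse strand with HTSeq 0.6.1, and DESeq2 1.6.3 was the authors' test. Reads placed at several positions were not counted. Of the 5 rows that name no gene, all left out here, reads on several genes made up 1.0% to 1.54% of uniquely placed reads, and the shares on no exon and at several positions are given with the results.

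Age groups were tested against each other in R 4.3.3 with edgeR 4.0.16 (TMM factors, default filter on low counts, quasi-likelihood test with age as the only term, Benjamini-Hochberg adjustment over 16157 genes, threshold 0.05, direction 24 minus 5 weeks). The SE of a log2 fold change was obtained by dividing it by the root of F. Symbols, positions and exon lengths came from GENCODE mouse release M21 on GRCm38, which matched 37607 of 38924 identifiers. The script was tested on simulated data. Groups were taken from the stage in the labels, and replicate numbers from the titles. Same-numbered libraries of the ages did not deviate together, so no pairing was used.

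The markers and all 13 gene lists were chosen with earlier results of these data known. Every marker is reported. Those with a mean of at least 10 counts are given with their values per library. Of the other choroid plexus and motile cilium genes, the 4 with the smallest p are named. Of genes outside the markers, the 10 that correlate best with the mean of each list are named, and other lists are given by counts.

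Alternatives were DESeq2's size factors, total counts, TMM without mitochondrial and small RNA genes, DESeq2 1.42.0, limma-voom (limma 3.58.1), no filter, at least 50 counts in every library, thinning of the 5-week libraries, a replicate block, leaving out each library, leaving out the most abundant marker and, added after seeing the data, removal of the trend on exon length. Promoter windows came from RefSeq. Het libraries were not analysed here.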

Additional observations from a re-analysis of the deposited data

How the results depend on the processing

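For the counts, medians and sums, 127 alternative values stayed within the limits set for them and 15 moved. For single markers, 397 kept direction and side of the threshold, 13 passed anew, 7 no longer passed and 23 turned sign. Leaving out single libraries gave 2836 to 6042 genes passed against 4646, 4 to 11 choroid plexus markers against 5 (11 without 5-week replicate 2), 0 to 2 ependymal markers against 1, and 5 to 14 other motile cilium genes against 12. Ependymal markers passed were 2 with total counts, 2 with limma-voom and 0 with the length trend removed. At least 50 counts in every library left 7 other motile cilium genes and an ependymal median of 0.49 over 2 markers. Without Ttr the ratio of summed choroid plexus CPM at 24 over 5 weeks was 1.24 against 1.01, and the ependymal to choroid ratio without Ttr and Dnah9 was 0.878 against 1.28. Total counts moved the median of all genes to 0.10 (log2), and signs turned only among markers that had not passed. Lmx1a (-0.01) went to 0.08 with total counts and with limma-voom, 0.04 with thinning, 0.00 with the replicate block and 0.02 with the length trend removed. Slc16a8 went to 0.03 with total counts and 0.06 with the length trend removed, which also gave Ttr 0.03, Dynlrb2 0.06 and Pifo 0.04. Leaving out single libraries gave log2 fold changes of -0.14 to 0.45 for Sostdc1, -0.04 to 0.65 for Kcne2, -0.19 to 0.24 for Lmx1a, -0.28 to 0.15 for Slc16a8, -0.03 to 0.37 for Foxj1, -0.04 to 0.59 for Rsph1, -0.52 to 0.10 for Pifo and -0.07 to 0.37 for 1700009P17Rik. The cause of these changes was not tested. The replicate numbers are only labels (correlations of same-numbered libraries 0.066, 0.089 and -0.045, and not every library correlated best with its own number). With the replicate block 6 choroid plexus markers passed, Kcnj13 (0.52, edgeR adjusted p = 0.0318) besides the 5, with 1 ependymal marker and 4375 genes in all. Ccdc153, Tmem212 and Spag6 had too few counts for the main filter, and whether depth or a low level set this was not tested.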

Other observations

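Outside the markers, the genes most like the choroid plexus list were sought among 3333 genes tested that varied within an age, by Pearson's r of age-centred log2 CPM with the mean of the list over the 6 libraries. The 10 highest were Myh7 (0.998), Col4a3 (0.996), Iqcd (0.995), Cdh3 (0.993), Steap2 (0.992), Nme5 (0.991), 1500015O10Rik (0.990), Baiap2l1 (0.987), Snord8 (0.987) and Msx1 (0.985). Col4a3 is a chain of basement membrane collagen, Cdh3 is P-cadherin, Steap2 is a metalloreductase related to the marker Steap1, and Msx1 is a homeobox gene. 1500015O10Rik and Msx1 are on the list of other choroid plexus genes. Of 10 candidates from that list 4 were among the 100 most like of the 3333 genes, and of 19 candidates from the motile cilium list 6 were. The median r of these candidates was 0.91 and 0.867. The libraries are few and share 5-week replicate 2, where each of the 10 genes stood at 1.55 to 2.90 times the other 5-week libraries.

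For the ependymal list the 10 highest were Il10 (0.994), Zc2hc1c (0.993), Ttc39a (0.989), Pax6 (0.987), Sh2d2a (0.987), Tead2 (0.986), Dnah6 (0.986), Rassf9 (0.985), 1110017D15Rik (0.983) and Msi1 (0.983). Pax6 and Msi1 are known from neural stem cells and ependyma, Dnah6 is a ciliary dynein, and Il10 is a cytokine. Of the 19 motile cilium candidates 6 were among the 100 most like of the 3333 genes. Of the 10 choroid plexus candidates 0 were, and of the 6 astrocyte candidates 1 was. The median r of these candidates was 0.848, 0.857 and 0.784. The cut at 100 genes therefore does not set the motile cilium genes apart from the choroid plexus genes. In 5-week replicate 2 the 10 named genes stood at 1.57 to 2.40 times the other 5-week libraries.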
